A study of Mus musculus with 8 samples.

Results

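Gene expression in the dorsal root ganglia (DRG) of mice was compared between 30 days (30d) and 1 day (1d) after an injection of carrageenan into the hind paw. The comparison uses 4 of the 8 libraries of a time course, 2 at 1d and 2 at 30d. It covers the 14948 of 24421 counted genes that reached a CPM (counts scaled to library size) of at least 1 in 2 or more of the 8 libraries. All mice were C57BL/6J, wild type (WT) by the sample titles and males by the study's methods. The mice of both groups had received 20 µl of 1% carrageenan in the left hind paw, so no uninjected animals stand on either side of this comparison. Naïve mice without injection gave the 0d libraries and injected mice sampled at 3d gave the rest; both serve below as a reference. Each library held RNA pooled from the left L3 to L5 ganglia of 2 to 3 mice, so a replicate is a pool and not an animal. The series description gives 8 weeks as the age at injection, whereas the study's methods give a wider range of ages for its mice. The ages at sampling are not given, and age at sampling cannot be told apart from time since injection.

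The sample labels give DRG neurons as the cell type, but whole ganglia were dissected, and markers of other cells were present in every library. Summed over a list of 15 sensory neuron markers, the level was 26031 to 27678 CPM across the 8 libraries. Myelinating Schwann cell markers summed to 6723 to 12684 CPM, satellite glia to 4032 to 4564 CPM, and fibroblasts and meninges to 1678 to 2496 CPM. Red blood cell, macrophage and skeletal muscle lists summed to 227 to 773, 211 to 265 and 52.2 to 240.0 CPM. The libraries are therefore read here as whole ganglia, and in such bulk RNA fewer cells of a type and less RNA per cell cannot be told apart.

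Library totals lay between 44123208 and 73580338 counts. The ratio of chi-square to its degrees of freedom between the 2 pools was 9.30 for 1d and 28.0 for 30d, beside 17.0 for 0d and 7.82 for 3d. Replicate 1 at 30d stood apart from replicate 2. Its neutrophil markers summed to 309 CPM against 131, its red blood cell markers to 773 against 423, its skeletal muscle markers to 193 against 52.2, and its myelin markers to 6723 against 9326. The naïve pools were apart as well, with 63.2 and 130.4 CPM for neutrophil, 227 and 418 for red blood cell, 240.0 and 127 for skeletal muscle and 12684 and 9460 for myelin markers. Results are therefore also given with single libraries left out.

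Carrageenan, a polysaccharide from seaweed, causes local inflammation and hypersensitivity of the injected paw. Interferons are secreted cytokines that act through JAK kinases and STAT and IRF transcription factors to switch on a broad set of interferon-stimulated genes. Among these are sensors of foreign nucleic acid, effectors that block viral replication, the ubiquitin-like modifier ISG15 and the machinery that presents antigen on MHC class I. The DRG holds the cell bodies of the sensory neurons that supply the paw, surrounded by satellite glia, and these neurons carry the ion channels, neuropeptides and receptors through which inflammation is felt as pain.

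At 30d, 101 of the 14948 genes differed from 1d at an adjusted p under 0.05, which is 0.676% of the genes tested. Of these, 89 (0.595%) were lower at 30d and 12 (0.0803%) were higher. The median log2 fold change over all genes tested was 0.00, and 7423 genes had a negative one. Interferon and antigen presentation genes made up 51 of the 89 lower genes (57.3%). Of the 133 genes of these lists that were tested, 38.3% were lower, beside 0.595% of all genes tested. None was higher, which with 0.0803% of all genes higher says little. The lists were chosen with earlier results of these data known, which favours a large share of lower genes. The 51 lower genes of these lists had a median log2 fold change of −0.95, while the other 38 lower genes had a median of −0.45. The 38 are not free of interferon genes, since several are known to be antiviral or inducible by interferon. H2-T9, among the 38, has nearly the same counts as H2-T22 of the lists. In all 101 genes both pools at 30d lay outside the range of both pools at 1d, as they also did in 6165 of the 14948 genes tested. An unadjusted p under 0.05 was reached by 1881 genes.

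**Figure D1:**
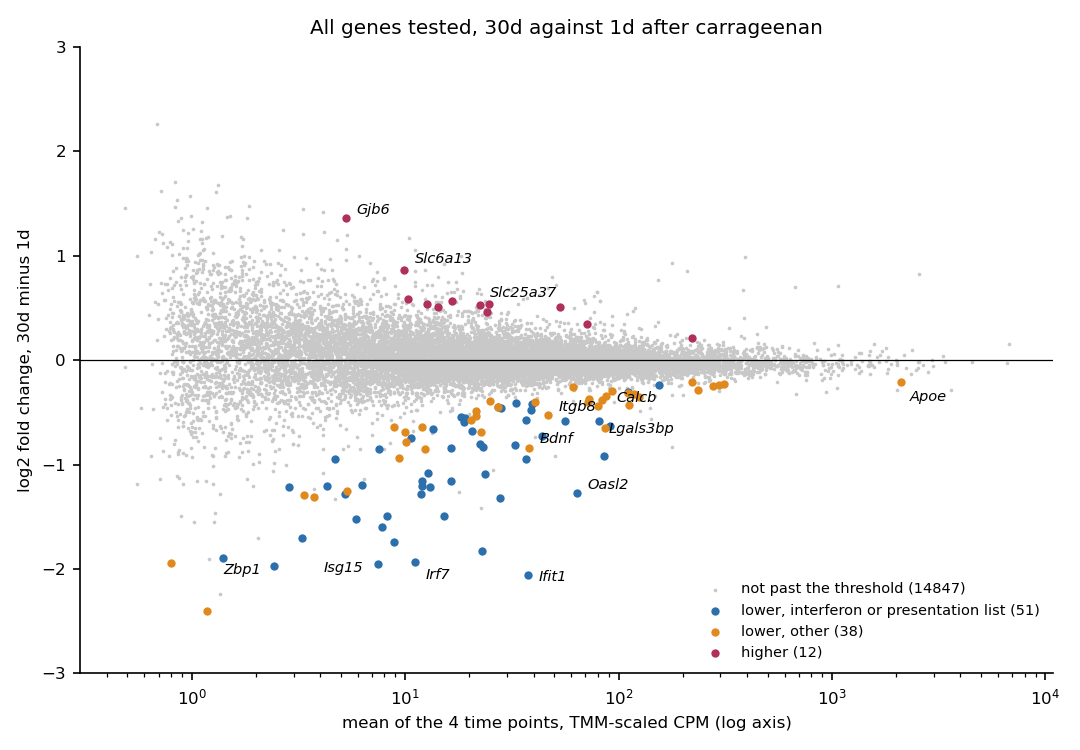
Log2 fold change of 30d against 1d (y axis) and mean TMM-scaled CPM of the 4 time points (x axis, log scale) for the 14948 genes tested, with coloured points for the 101 genes past the threshold. The 51 interferon and presentation genes reach down to −2.05 for Ifit1, and the 12 higher genes reach up to 1.36 for Gjb6.

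The naïve pools serve as a further point of reference, though the genes were chosen for their 1d and 30d values, which favours such positions. Over all genes tested, both 0d pools lay below both 1d pools in 16.1%, and among the 3165 genes whose 30d pools both lay below both 1d pools this share was 31.3%. In the 51 interferon and presentation genes, both 0d pools lay below both 1d pools in all 51. In 32 of them the 30d pools overlapped the 0d pools, in 11 both lay above and in 8 both lay below. Among the 3165 genes just named, 42.0% overlapped the 0d pools, 3.51% lay above and 54.5% lay below. Among the other 38 lower genes, 25 had 0d pools below the 1d pools, 9 overlapped them and 4 lay above, and in 25 the 30d pools lay below both 0d pools. Of the 12 higher genes, 10 had 0d pools that overlapped the 1d pools, and in all 12 both 30d pools lay above both 0d pools. Among the 3000 genes whose 30d pools both lay above both 1d pools, these shares were 64.9% and 57.5%. These positions are descriptions of 2 pools per time point and were not tested.

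The number of genes called depended on single libraries. It was 43 without replicate 2 at 1d, 46 and 47 without replicate 1 or 2 at 3d, and 263 without replicate 1 at 30d. In every such fit the calls included at least 31 of the 51 interferon and presentation genes, and they included 48 of them without the divergent 30d replicate 1. Calls that held in 12 other analysis settings and with each of the 8 libraries left out numbered 30. No gene called changed direction in any of these fits.

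The promoters of interferon-stimulated genes often carry an interferon-stimulated response element, to which STAT and IRF factors bind. Its core was searched on both strands as GAAANNGAAA, copies being allowed to overlap, in RefSeq promoter windows of 300 bases (GRCm38.p6), from 250 bases before to 50 bases after each start site. A window was found for 41 of the 51 lower interferon and presentation genes, and in 20 of the 41 (48.8%) it held the motif. Among all 27025 genes with a window the share was 3.99%. None of the 10 matched genes of the 12 higher ones held it, which at that share says little. The motif was also present in 21 of 63 uncalled genes of the interferon and presentation lists with a window (33.3%), so it was not particular to the genes called. It was held by 9 of 28 of the other lower genes (32.1%), namely Bdnf, Ddx60, Soga3, Adcyap1, Fbln5, Trim34a, Gm12250, Lgals9 and Pydc3. Of these, Ddx60 and Lgals9 are described below as antiviral or inducible by interferon. A gene with several windows counted when any of them held the motif. By window the share was 44.7% for the lower interferon and presentation genes, 21.4% for the other lower genes and 3.44% over all windows. Windows were missing for a larger part of the uncalled list genes and of the other lower genes (63 of 82 and 28 of 38 matched), and their shares were not compared further. The windows of Oasl2 and Irf7 held no copy. A match is a description of the letters and not a proven binding site. The windows below are those of the 8 genes with the smallest p among the lower genes that held the motif, chosen to show its number and place in the genes that differed most clearly. They are printed 5′ to 3′ in the direction of transcription, with the motif copies in capitals. Isg15 held 3 overlapping copies at positions −78 to −66 from its start (chr4:156200769-156201068, minus strand). Ifit1 (chr19:34640639-34640938), Ifit3 (chr19:34583279-34583578), Ifit3b (chr19:34607707-34608006) and Gbp3 (chr3:142559794-142560093), all on the plus strand, held 2 copies each. Stat2 (chr10:128270248-128270547, plus strand) held 1 copy, as did Ddx58 (chr4:40239776-40240075) and Eif2ak2 (chr17:78882523-78882822), both on the minus strand.
Ifit1: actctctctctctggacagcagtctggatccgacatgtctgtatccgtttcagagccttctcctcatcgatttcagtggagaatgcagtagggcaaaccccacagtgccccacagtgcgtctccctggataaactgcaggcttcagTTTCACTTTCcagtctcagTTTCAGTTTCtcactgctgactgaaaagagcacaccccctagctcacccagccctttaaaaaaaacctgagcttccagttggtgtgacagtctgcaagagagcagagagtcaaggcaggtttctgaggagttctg
Ifit3: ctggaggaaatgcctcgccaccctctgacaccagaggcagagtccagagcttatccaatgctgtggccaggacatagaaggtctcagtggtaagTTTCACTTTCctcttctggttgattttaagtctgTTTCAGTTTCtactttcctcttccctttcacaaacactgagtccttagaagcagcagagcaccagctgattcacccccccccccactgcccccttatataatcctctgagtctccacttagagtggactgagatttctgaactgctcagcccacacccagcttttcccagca
Isg15: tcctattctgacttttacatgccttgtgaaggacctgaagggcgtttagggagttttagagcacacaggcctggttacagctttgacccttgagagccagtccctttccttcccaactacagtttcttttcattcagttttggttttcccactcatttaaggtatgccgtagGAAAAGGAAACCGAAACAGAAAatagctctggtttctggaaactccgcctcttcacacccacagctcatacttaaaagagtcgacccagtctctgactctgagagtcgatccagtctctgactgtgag
Ddx58: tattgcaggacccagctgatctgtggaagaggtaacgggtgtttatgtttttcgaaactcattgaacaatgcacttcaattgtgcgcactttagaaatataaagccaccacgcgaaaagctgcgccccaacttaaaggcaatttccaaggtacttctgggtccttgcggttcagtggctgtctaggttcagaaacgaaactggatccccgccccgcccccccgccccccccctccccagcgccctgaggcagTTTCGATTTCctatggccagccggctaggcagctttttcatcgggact
Ifit3b: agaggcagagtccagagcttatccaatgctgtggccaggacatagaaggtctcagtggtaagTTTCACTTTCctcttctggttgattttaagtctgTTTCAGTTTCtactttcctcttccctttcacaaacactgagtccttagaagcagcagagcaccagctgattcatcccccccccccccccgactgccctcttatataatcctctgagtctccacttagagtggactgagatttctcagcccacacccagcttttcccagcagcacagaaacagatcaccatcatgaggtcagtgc
Stat2: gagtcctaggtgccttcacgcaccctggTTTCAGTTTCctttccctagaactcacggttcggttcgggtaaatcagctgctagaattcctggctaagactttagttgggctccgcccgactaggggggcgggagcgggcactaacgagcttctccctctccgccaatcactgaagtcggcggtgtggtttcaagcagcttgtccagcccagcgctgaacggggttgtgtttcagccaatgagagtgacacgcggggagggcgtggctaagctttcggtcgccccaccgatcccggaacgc
Eif2ak2: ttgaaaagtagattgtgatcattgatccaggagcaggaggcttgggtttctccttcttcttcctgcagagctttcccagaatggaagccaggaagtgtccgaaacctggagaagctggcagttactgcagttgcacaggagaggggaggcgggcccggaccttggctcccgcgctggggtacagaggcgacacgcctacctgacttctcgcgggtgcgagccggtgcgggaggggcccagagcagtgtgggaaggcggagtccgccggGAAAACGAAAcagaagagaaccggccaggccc
Gbp3: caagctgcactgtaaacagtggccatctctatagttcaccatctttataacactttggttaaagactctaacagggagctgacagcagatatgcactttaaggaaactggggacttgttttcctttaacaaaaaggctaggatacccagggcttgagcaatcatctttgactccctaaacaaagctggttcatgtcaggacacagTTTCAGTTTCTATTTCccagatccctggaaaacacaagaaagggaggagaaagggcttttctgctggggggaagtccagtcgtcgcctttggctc

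Ifit3 and Ifit3b are close copies on the same chromosome, and 51.2% of the 50-base words of the Ifit3 transcript occur in Ifit3b. Multi-mapping reads were left out of the counts, so the values of this pair rest on the remaining sequence and the split between them is uncertain.

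Sensors of foreign nucleic acid were lower at 30d in 3 of 16 genes tested, with a median log2 fold change of −0.45 against 0.00 over all genes. Ddx58, which encodes the RNA sensor RIG-I, had 53.5 and 49.6 CPM in the 2 pools at 1d and 27.7 and 25.8 CPM at 30d, beside 29.5 and 32.4 CPM at 0d. Both 30d pools thus lay under every other library, and the log2 fold change was −0.95 ± 0.07 (SE; edgeR adjusted p = 1.32e-05). Ifih1, the related sensor MDA5, fell from 20.0 and 17.8 CPM to 9.88 and 7.13 CPM, a log2 fold change of −1.16 ± 0.15. Zbp1, a sensor of Z-form nucleic acid, had 5.94 and 4.67 CPM at 1d and 1.45 and 1.26 CPM at 30d. Its log2 fold change of −1.97 ± 0.27 was the most negative of the 16. Mavs, the adaptor through which RIG-I and MDA5 signal, did not pass the test, with a log2 fold change of 0.29. Nor did Myd88 and Ticam1, adaptors of Toll-like receptors, at −0.24 and −0.15.

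Of the IRF and STAT factors, 5 of 14 genes were lower at 30d, while the median log2 fold change was −0.03. Irf7, the transcription factor that amplifies type I interferon production, had 24.2 and 20.0 CPM at 1d against 6.80 and 4.79 CPM at 30d. The 0d pools held 6.67 and 7.51 CPM and overlapped those at 30d, and the log2 fold change was −1.94 ± 0.16 (edgeR adjusted p = 2.86e-05). Stat2 and Irf9 encode subunits of the complex that carries the type I interferon signal to the promoter. Stat2 had 127 and 115 CPM at 1d against 74.6 and 82.4 CPM at 30d, a log2 fold change of −0.63 ± 0.06. For Irf9 the pools held 37.8 and 33.9 CPM at 1d and 20.2 and 13.6 CPM at 30d, and for Irf1, an interferon-induced activator, 26.5 and 23.7 CPM against 18.1 and 15.3 CPM. The call for Irf9 was lost without either 1d pool or either 3d pool, and that for Irf1 also without 30d replicate 2, with log2 fold changes of −1.39 to −0.83 and −0.71 to −0.47 over the libraries left out. Factors of other cytokine pathways did not pass the test, with −0.11 for Stat3, −0.02 for Stat6 and −0.03 for Stat5b. Nor did any of the 12 interferon receptors, JAK kinases and SOCS inhibitors, whose median log2 fold change was −0.02, with 0.08 for Jak1 and −0.11 for the receptor Ifnar1.

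Antiviral effectors formed the largest group, with 23 of 36 genes lower at 30d, 35 of 36 log2 fold changes negative and a median of −0.71. Ifit1, whose product binds foreign RNA, had 82.5 and 62.6 CPM at 1d against 17.4 and 17.6 CPM at 30d. The 0d pools held 22.8 and 22.4 CPM, so that both 30d pools lay below every other library, and the log2 fold change was −2.05 ± 0.11 (edgeR adjusted p = 2.32e-06). Ifit3 had 49.0 and 43.2 CPM at 1d against 14.96 and 11.2 CPM at 30d, while Ifit3b had 19.2 and 17.6 CPM against 6.14 and 4.88 CPM. Their relative Ifit2 differed less, with 48.9 and 47.3 CPM at 1d against 35.8 and 35.9 CPM at 30d, a log2 fold change of −0.42 ± 0.07. The other family member in the list, Ifit1bl1, had −0.34 and did not pass. The call for Ifit2 was lost without either 1d pool and without 30d replicate 2, though its log2 fold change stayed between −0.45 and −0.40 over the libraries left out.

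Several effectors with separate modes of action moved with them. Rtp4, a chaperone that brings receptors such as opioid receptors to the cell surface and is itself induced by interferon, had 17.4 and 14.6 CPM at 1d against 5.46 and 5.91 CPM at 30d, a log2 fold change of −1.49 ± 0.14. Eif2ak2 encodes PKR, the kinase that halts translation on sensing double-stranded RNA. Its pools agreed closely, with 46.9 and 46.1 CPM at 1d against 31.2 and 31.5 CPM at 30d, a log2 fold change of −0.57 ± 0.07. Ifitm3, which blocks the entry of viruses through endosomes, had 50.5 and 41.4 CPM against 26.5 and 25.98 CPM, a log2 fold change of −0.81 ± 0.10. Rsad2, which encodes viperin, had 25.3 and 19.4 CPM against 10.9 and 10.1 CPM, with both 30d pools above the 7.43 and 9.48 CPM at 0d. Xaf1, Bst2 (the virus tether tetherin) and Ifi44 had log2 fold changes of −1.28, −1.22 and −1.70. Mx1, a dynamin-like GTPase, had 4.16 and 2.48 CPM at 1d and 0.795 and 0.987 CPM at 30d. It entered the test through its 1d pools alone, which favours a lower call, and this call was lost without 1d replicate 1, either 3d pool or 30d replicate 2. The call for Bst2 was lost without 30d replicate 2 (log2 fold change −1.13).

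The remaining effectors called were Parp14, Parp9, Parp12, Dtx3l, Ly6e, Trim30a, Ifi47, Cmpk2, Znfx1, Slfn5 and Ifi35, with log2 fold changes from −1.28 for Ifi47 to −0.24 for Znfx1. Parp9 and Dtx3l, which form 1 complex, lie end to end on opposite strands and overlap over 9.37% and 6.45% of their lengths, and the counting did not use strand. Of these 11 genes, Parp14 and Ly6e stayed called with each library left out. Among effectors that did not pass the test, the 3 with the highest CPM were Adar, Ifi27 and Ifitm2. Ifi27 had 95.3 and 105 CPM at 1d against 83.5 and 83.4 CPM at 30d, while Ifitm2, next to Ifitm3 in the same family, had 24.6 and 25.1 CPM against 26.5 and 22.2 CPM.

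Oligoadenylate synthetases make a second messenger on sensing double-stranded RNA. Of the 8 members tested 2 were lower at 30d, and all 8 log2 fold changes were negative with a median of −1.17. Oasl2 had the smallest p of all genes tested, with 103 and 87.6 CPM at 1d against 39.4 and 39.1 CPM at 30d. Its 0d pools held 44.7 and 48.5 CPM, its 3d pools 73.97 and 73.8 CPM, and the log2 fold change was −1.28 ± 0.07 (edgeR adjusted p = 8.16e-07). Oasl1 had 5.11 and 4.58 CPM against 2.23 and 1.95 CPM, and its call was lost without either 1d pool, either 3d pool or 30d replicate 2, its log2 fold change in those fits lying between −1.29 and −1.11. Oas1a, with 4.22 and 2.91 CPM against 1.54 and 0.672 CPM, came close to the threshold at a log2 fold change of −1.70 ± 0.36 (edgeR adjusted p = 0.0502).

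The ISG15 system attaches a ubiquitin-like protein to targets during the interferon response. In the list of this system, 5 of 7 genes were lower at 30d, all 7 had negative log2 fold changes, and the median was −0.73. One of the 5, Lgals3bp, is interferon-inducible but takes no part in the conjugation. Isg15 itself had 17.8 and 16.2 CPM at 1d against 4.36 and 4.41 CPM at 30d. Its levels at 0d (4.14 and 4.10 CPM) and 3d (4.04 and 4.41 CPM) resembled those at 30d, so that the 1d pools stood alone, and the log2 fold change was −1.95 ± 0.14 (edgeR adjusted p = 5.95e-06). Usp18, the protease that removes ISG15 and restrains interferon signalling, had 11.2 and 10.5 CPM against 3.06 and 4.48 CPM, a log2 fold change of −1.52 ± 0.19. Lgals3bp, which encodes a secreted glycoprotein that binds galectins, had 104 and 102 CPM against 69.1 and 68.5 CPM, a log2 fold change of −0.58 ± 0.06. The ligases Trim25 and Herc6 were lower with log2 fold changes of −0.73 and −0.85. The call for Trim25 was lost without 1d replicate 2 (lowest and highest log2 fold change −0.91 and −0.56 over the libraries left out), and that for Herc6 without either 1d pool, either 3d pool or 30d replicate 2 (−1.09 and −0.64 likewise). The conjugating enzyme Ube2l6 and the activating enzyme Uba7 did not pass, at −0.33 and −0.48.

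Interferon-induced GTPases attack the vacuoles in which intracellular pathogens live. Of the 13 tested 6 were lower at 30d, and all 13 had a negative log2 fold change and an unadjusted p under 0.05, with a median of −1.21. Gbp3 had 33.2 and 23.2 CPM at 1d against 10.9 and 9.21 CPM at 30d, a log2 fold change of −1.49 ± 0.16 (edgeR adjusted p = 0.000918). Iigp1 had 17.5 and 12.8 CPM against 5.82 and 4.24 CPM, and Irgm1 had 23.5 and 19.2 CPM against 10.5 and 7.96 CPM. In this family 1d replicate 1 was above 1d replicate 2, and the summed level was 311 and 225 CPM at 1d against 134 and 98.0 CPM at 30d. Gbp7, Igtp and Gbp5 were lower with log2 fold changes of −0.83, −1.32 and −1.20. The call for Igtp was lost without either 3d pool and in a fit of 1d and 30d alone. That for Gbp5 was lost without robust estimation and when any 1 of 5 libraries was left out (both 1d pools, both 3d pools and 30d replicate 2). The log2 fold change of Gbp5 in those fits lay between −1.40 and −0.92. Of the members that did not pass, those with the highest CPM were Irgm2, Gbp2 and Gbp4, with log2 fold changes of −1.42, −1.26 and −0.82 and pools at 1d as far apart as 43.3 and 23.5 CPM for Gbp2.

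**Figure D2:**
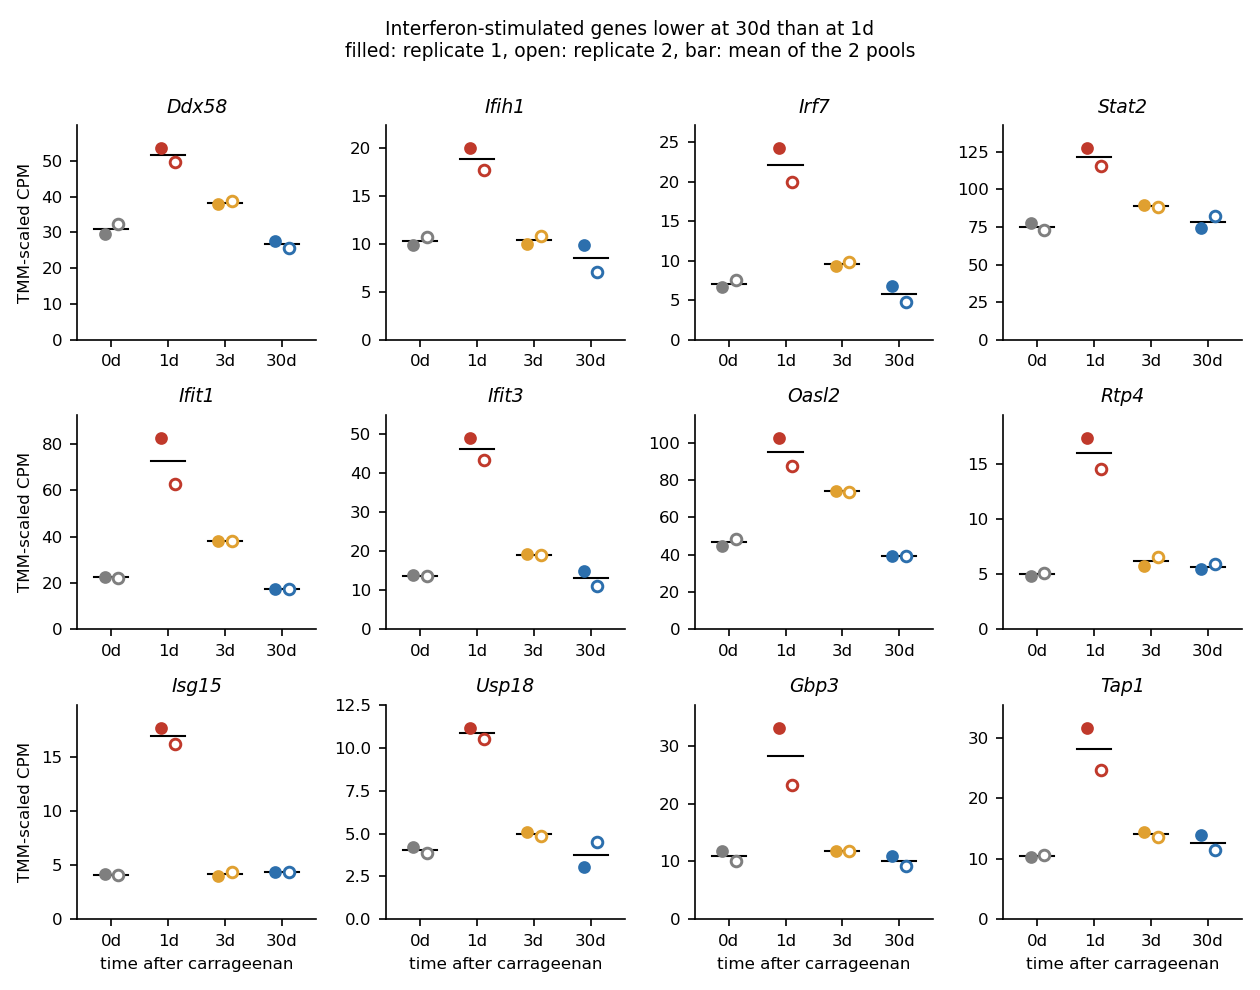
TMM-scaled CPM (y axis, from 0) of 12 interferon-stimulated and presentation genes at 0d, 1d, 3d and 30d (x axis), with 1 point per pool and a bar for the mean of 2 pools. In each panel both 1d pools lie above both 30d pools, from 82.5 and 62.6 against 17.4 and 17.6 CPM for Ifit1 to 127 and 115 against 74.6 and 82.4 CPM for Stat2.

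Antigen presentation on MHC class I was lower at 30d in 7 of 20 genes, with 19 negative log2 fold changes and a median of −0.40. Tap1, a subunit of the transporter that carries peptides into the endoplasmic reticulum, had 31.8 and 24.7 CPM at 1d against 13.9 and 11.4 CPM at 30d, a log2 fold change of −1.16 ± 0.13 (edgeR adjusted p = 0.000609). Tap2, the other subunit, had 44.6 and 40.3 CPM against 33.7 and 30.1 CPM, a log2 fold change of −0.41 ± 0.08. For both subunits the 30d pools remained above the 0d pools, which held 10.3 and 10.7 CPM for Tap1 and 26.9 and 27.0 CPM for Tap2. Tapbp, the tapasin that loads peptides, had a log2 fold change of −0.30, the immunoproteasome subunits Psmb9 and Psmb10 had −0.95 and −0.46, and the non-classical class I genes H2-T23 and H2-T22 had −0.84 and −0.45. Of these 7 calls, Tap1 alone held with each library left out. Tapbp lost its call without 1d replicate 1 (log2 fold change −0.26), and Tap2, H2-T23, H2-T22, Psmb9 and Psmb10 each lost theirs when any 1 of 4 or 5 libraries was left out, with log2 fold changes that stayed negative.

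The heavy and light chains of the classical class I molecules did not pass the test. H2-K1 had 139 and 106 CPM at 1d against 102 and 96.7 CPM at 30d, H2-D1 had 265 and 230 CPM against 221 and 205 CPM, and B2m had 251 and 189 CPM against 164 and 186 CPM. In each of them 1d replicate 1 lay above the other 3 pools. None of the 7 MHC class II genes was called, the median log2 fold change being −0.07, and Cd74, the class II chaperone, had 164 and 155 CPM against 147 and 140 CPM. None of 16 complement genes and none of 17 chemokine and chemokine receptor genes was called, with medians of −0.05 and 0.13. The most negative log2 fold change among the chemokines was −2.24 ± 0.70 for Cxcl9, an interferon-induced ligand of T cells named here after its values were seen, which had 4.79 and 1.25 CPM at 1d against 0.998 and 0.3005 CPM at 30d.

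**Figure D3:**
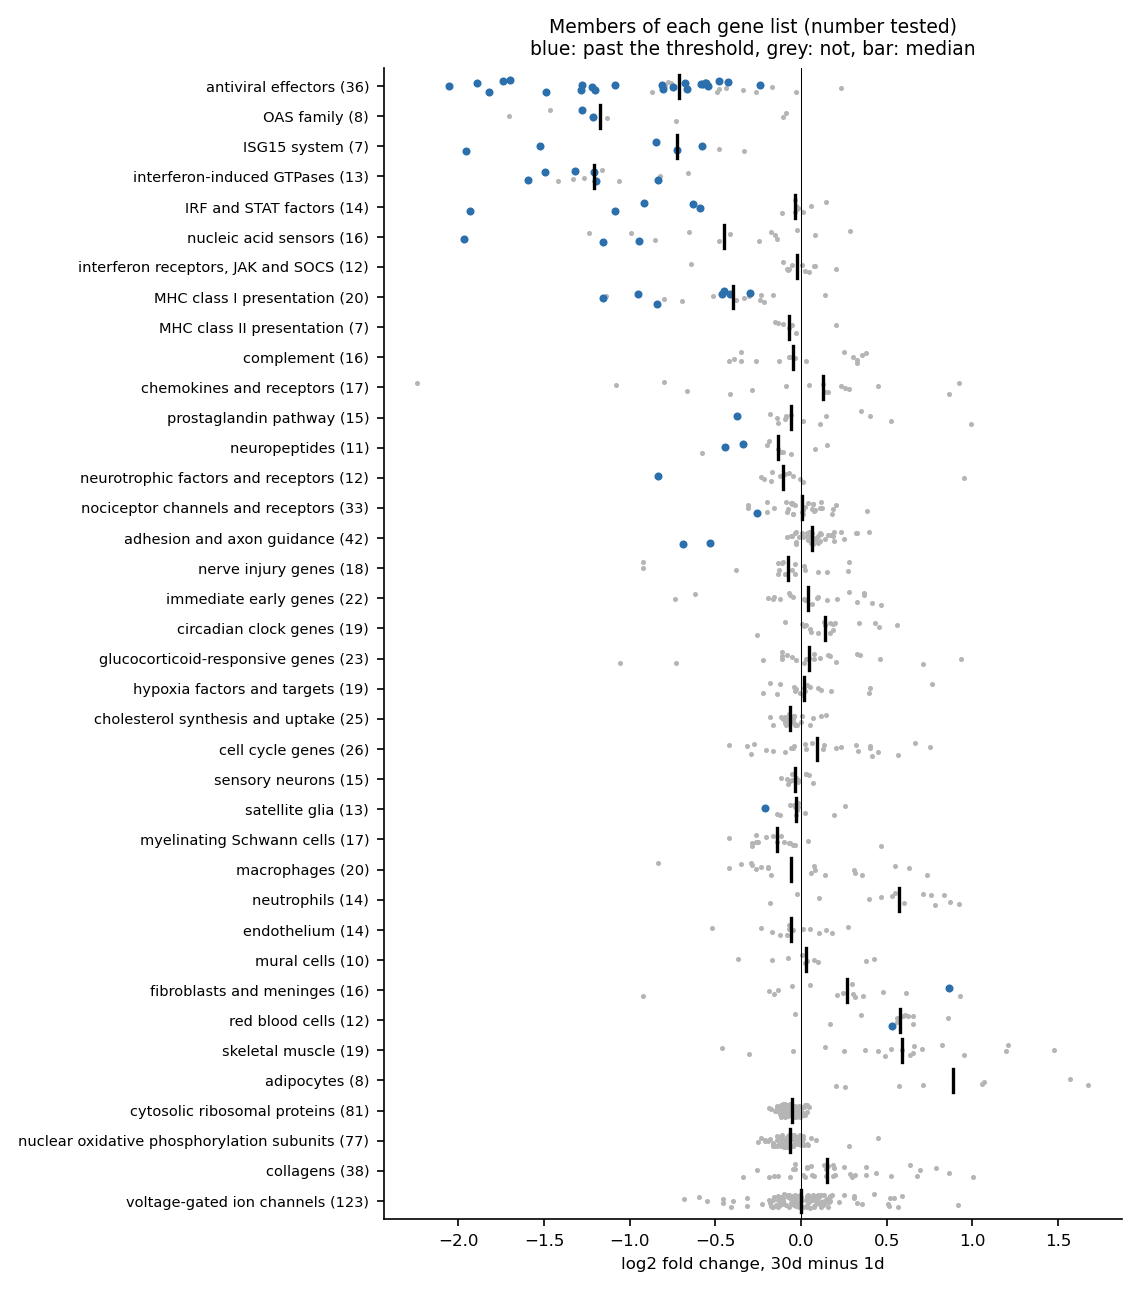
Log2 fold change of 30d against 1d (x axis) for each tested member of 38 gene lists (y axis, number tested in brackets), with blue points for genes past the threshold, grey points for the others and a bar at the list's median. Lower genes gather in the interferon and MHC class I lists at the top, with medians of −1.21 for GTPases and −0.40 for MHC class I, while the medians of neutrophil, muscle and adipocyte markers lie at 0.57, 0.59 and 0.89 with no gene past the threshold.

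Outside the interferon lists, small numbers of pain signalling, adhesion and axon guidance genes were lower at 30d. The counts of lower genes in the lists that follow stand beside 0.595% of all genes tested. Bdnf, a neurotrophin that nociceptors release in the spinal cord, had 42.5 and 42.9 CPM at 1d against 26.6 and 21.3 CPM at 30d. Its levels were 32.8 and 35.5 CPM at 0d and 49.4 and 54.7 CPM at 3d, so the 30d pools were the lowest of all 8 libraries, and the log2 fold change was −0.84 ± 0.10 (edgeR adjusted p = 0.000995). This call held in every setting and with each library left out, with log2 fold changes between −1.005 and −0.68. It was the 1 gene called among 12 neurotrophic factors and receptors. The receptors Ret and Ngfr had log2 fold changes of −0.17 and −0.17 and did not pass.

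Of 11 neuropeptide genes 2 were lower, with a median log2 fold change of −0.13 for the list. Adcyap1, which encodes the peptide PACAP, had 84.4 and 90.1 CPM at 1d against 66.9 and 61.5 CPM at 30d, a log2 fold change of −0.44 ± 0.06 (edgeR adjusted p = 0.00375). Calcb, one of the genes for the vasodilator peptide CGRP, had 92.6 and 97.0 CPM against 75.0 and 74.7 CPM, a log2 fold change of −0.34 ± 0.06. In both genes the 30d pools also lay under both 0d pools. Its relative Calca did not pass, with 868 and 932 CPM against 794 and 786 CPM and a log2 fold change of −0.19 ± 0.05. Tac1, the gene for substance P, had −0.06. The call for Adcyap1 was lost without 1d replicate 2 (log2 fold change −0.39), and that for Calcb without 1d replicate 2, either 3d pool or 30d replicate 2 (−0.37 to −0.30 over the libraries left out).

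Prostaglandins sensitise nociceptors, and 1 of 15 genes of their pathway was lower at 30d. Ptgir, the receptor for prostacyclin, had 84.1 and 77.1 CPM at 1d against 63.6 and 60.7 CPM at 30d. The 0d pools held 62.9 and 61.7 CPM and the 3d pools 87.1 and 87.1 CPM, so the 30d level overlapped that of naïve ganglia, and the log2 fold change was −0.38 ± 0.06 (edgeR adjusted p = 0.00519). Its call held with each library left out. Ptgds, a synthase of prostaglandin D, had 886 CPM in 30d replicate 1 but 419 CPM in replicate 2, against 324 and 332 CPM at 1d. Its log2 fold change of 0.99 ± 0.51 did not pass the test.

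Among 33 nociceptor channels and receptors 1 was lower and the median log2 fold change was 0.01. Trpa1, a channel opened by irritants, had 63.4 and 65.3 CPM at 1d against 54.6 and 53.0 CPM at 30d. The pools of a time point lay close together without overlap between time points, and the log2 fold change was −0.26 ± 0.05 (edgeR adjusted p = 0.0446). This call was lost in 5 other settings and when any 1 of 5 libraries was left out, with log2 fold changes from −0.28 to −0.23 over the libraries left out. The sodium channel genes Scn10a and Scn11a had log2 fold changes of −0.07 and −0.05, and the mechanically gated channel gene Piezo2 had 0.08. None of 123 voltage-gated ion channel genes tested passed, with a median of 0.00. None of 18 nerve injury genes or 22 immediate early genes did either, with medians of −0.07 and 0.04. With 0.676% of all genes called, the absence of calls in lists of these sizes says little.

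Cell adhesion and axon guidance genes included 2 that were lower among 42 tested, while the list's median log2 fold change was 0.06. Itgb8, the integrin subunit that activates latent TGF-β, had 45.3 and 49.5 CPM at 1d against 35.8 and 29.9 CPM at 30d, a log2 fold change of −0.53 ± 0.08 (edgeR adjusted p = 0.00849). Ncam2, a neural cell adhesion molecule, had 23.9 and 25.9 CPM against 17.8 and 13.1 CPM, a log2 fold change of −0.69 ± 0.12 (edgeR adjusted p = 0.0180). In contrast to the interferon genes, both had 0d pools above the 1d pools, at 56.3 and 51.7 CPM for Itgb8 and 26.3 and 26.8 CPM for Ncam2. The call for Itgb8 was lost without 1d replicate 2 (log2 fold change −0.46), and that for Ncam2 without 1d replicate 2 or either 3d pool (−0.92 to −0.48 over the libraries left out). Of the satellite glia markers 1 of 13 was lower, with a median of −0.03. It was Apoe, the lipid carrier, with 2103 and 2218 CPM at 1d against 1827 and 1915 CPM at 30d, a log2 fold change of −0.21 ± 0.04 (edgeR adjusted p = 0.0196), and its call was lost without 1d replicate 2, either 3d pool or 30d replicate 1 (−0.25 to −0.17 over the libraries left out).

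**Figure D4:**
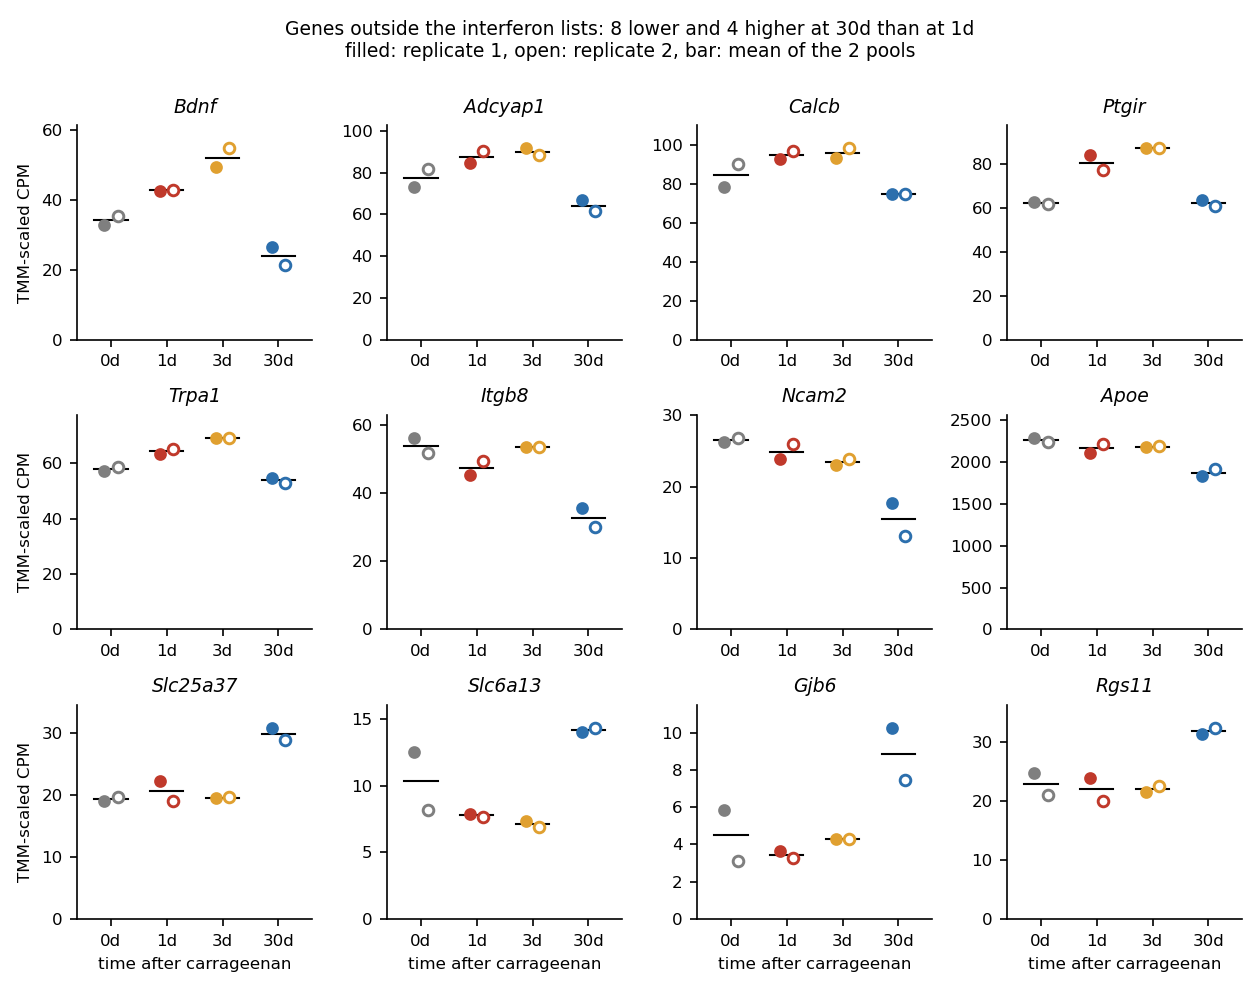
TMM-scaled CPM (y axis, from 0) at 0d, 1d, 3d and 30d (x axis) of 8 genes that were lower and 4 that were higher at 30d than at 1d and lie outside the interferon and presentation lists, with 1 point per pool and a bar for the mean of 2 pools. For Bdnf the 30d pools, at 26.6 and 21.3 CPM, are the lowest of the 8 libraries, and for Slc25a37 those at 30.9 and 28.8 CPM are the highest.

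The other lower genes lay in no list and are named here after their values were seen. Several are known to be antiviral or inducible by interferon. Ddx60, a helicase of the RNA sensing pathway, had 10.1 and 8.54 CPM at 1d against 3.92 and 3.91 CPM at 30d, and its log2 fold change of −1.25 ± 0.18 held as a call with each library left out. Zc3hav1 (the zinc-finger antiviral protein), Siglec1 (a sialic acid receptor of macrophages) and Lgals9 (a galectin) had log2 fold changes of −0.57, −1.29 and −0.40. Further genes with immune roles were Ly6a, Tifa, Trim34a and Serpina3g, between −1.31 for Trim34a and −0.38 for Serpina3g. These 7 calls, without Ddx60, were lost in at least 1 fit with a library left out. Of the 50-base words of the Trim34a transcript, 41.3% occur in Trim34b, so its values rest on the remaining sequence.

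Other lower genes in no list were likewise named after their values were seen, and they are not a tested group. Soga3 had 250 and 255 CPM at 1d against 207 and 209 CPM at 30d, a log2 fold change of −0.28 ± 0.04 that held as a call with each library left out. Arfgef3, a guanine nucleotide exchange factor family member, had 89.0 and 106 CPM against 60.5 and 64.0 CPM, a log2 fold change of −0.65 ± 0.08. Its call was lost once a gene length trend was removed from each library (log2 fold change −0.73, edgeR adjusted p = 0.0712). Etv5, an ETS transcription factor, had 122 and 119 CPM against 97.8 and 81.9 CPM, a log2 fold change of −0.43 ± 0.07, and 26.8% of the words of its transcript occur in another annotated gene. Nptx1 (a neuronal pentraxin), Dgki (a diacylglycerol kinase) and Sdc3 (a syndecan) had log2 fold changes of −0.24, −0.32 and −0.22. The matrix genes Fbln5 and Matn2 and the membrane metalloprotease Mmp15 had −0.32, −0.35 and −0.21, while 0 of the 38 collagen genes tested were lower. The call for Etv5 was lost without either 1d pool (log2 fold changes −0.41 and −0.44), and those of Nptx1, Dgki, Sdc3, Fbln5, Matn2 and Mmp15 were lost in at least 1 fit with a library left out.

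Further lower genes outside the lists were Gm12250, Pydc3, Tyrp1, Tor3a, Gm6548, Ptpn4, Plcxd3, H2-T9, Nbeal1, Timeless, Tmem176b and Arpc1b, with log2 fold changes from −2.40 for Gm12250 to −0.24 for Arpc1b. Gm12250 had 3.08 and 2.004 CPM at 1d against 0.643 and 0.329 CPM at 30d. Without the 1d pools Gm12250 and Pydc3 would not have reached a CPM of 1 in 2 libraries, so that the filter favoured lower calls for them. Arpc1b, a subunit of the complex that branches actin filaments, had 279.5 and 293 CPM against 241 and 243 CPM. Each of these 12 calls was lost in at least 1 fit with a library left out, that of Gm12250 without either 1d pool, either 3d pool or 30d replicate 2.

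The 12 genes higher at 30d had log2 fold changes between 0.22 and 1.36. Slc25a37 had the smallest p. It encodes mitoferrin, which imports iron into mitochondria, and had 22.3 and 19.0 CPM at 1d against 30.9 and 28.8 CPM at 30d. All 6 pools of the other time points lay between 19.0 and 22.3 CPM, and the log2 fold change was 0.53 ± 0.09 (edgeR adjusted p = 0.0154). This gene is also a member of the red blood cell list, whose other 11 members tested did not pass. The values of Hba-a1 and Hba-a2 are identical, as are those of Hbb-bs and Hbb-b1, so these 4 rows hold 2 measurements. The haemoglobin genes of that list were highest in 30d replicate 1 (Hba-a1 with 157 CPM against 87.2 CPM in replicate 2 and 80.5 and 84.4 CPM at 1d). Slc25a37 had 30.9 CPM in replicate 1 and 28.8 CPM in replicate 2. The part of red blood cells in its level was not tested.

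Slc6a13, a GABA and taurine transporter of the meninges, had 7.89 and 7.70 CPM at 1d against 14.04 and 14.4 CPM at 30d, a log2 fold change of 0.87 ± 0.17 (edgeR adjusted p = 0.0303). The 0d pools were far apart, at 12.6 and 8.21 CPM. It was the 1 gene called among 16 fibroblast and meningeal markers, whose median log2 fold change was 0.27. Gjb6, which encodes the gap junction protein connexin 30, had the largest difference of the 12, with 3.64 and 3.26 CPM at 1d against 10.3 and 7.44 CPM at 30d and a log2 fold change of 1.36 ± 0.26 (edgeR adjusted p = 0.0418). Rgs11, a regulator of G-protein signalling, had 23.9 and 19.9 CPM against 31.2 and 32.4 CPM, a log2 fold change of 0.54 ± 0.10. The other 8 were Pabpn1, Abcc5, Pnpla3, Mbd6, Kank3, Tle2, Sdpr and Hic1, with log2 fold changes from 0.22 for Abcc5 to 0.59 for Hic1.

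None of these 12 calls held without 1d replicate 2 or without either 3d pool, 6 held without 30d replicate 1 and 2 held without 30d replicate 2. The log2 fold changes stayed positive, from 0.42 to 0.65 for Slc25a37 and from 1.11 to 1.58 for Gjb6 over the libraries left out. The transcripts of the 12 genes had a median GC content of 56.4%, against 49.9% over all genes tested, and 11 of the 12 stayed called once a GC trend was removed from each library. For Pabpn1, 27.3% of the words of the transcript occur in another annotated gene.

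None of 15 sensory neuron markers passed the test, their log2 fold changes lay between −0.11 and 0.07, and their summed level was 26748 and 27337 CPM at 1d against 26031 and 26672 CPM at 30d. None of 17 myelinating Schwann cell markers passed either, with a median of −0.14 and 15 negative log2 fold changes, and their summed level was 9274 and 9310 CPM at 1d against 6723 and 9326 CPM at 30d. Of 20 macrophage markers none was called, 7 had an unadjusted p under 0.05 with log2 fold changes of the list from −0.84 to 0.73, and their summed level was 239 and 239 CPM at 1d against 265 and 229 CPM at 30d. Endothelial and mural cell markers, 14 and 10 genes, had medians of −0.06 and 0.03 and no call. The lymphocyte and central glia lists had 4 of 15 and 2 of 9 genes abundant enough to test, and none was called. Their summed levels stayed at or below 15.6 CPM in every library.

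In markers of blood, muscle and fat, 30d replicate 1 was above replicate 2. Neutrophil markers summed to 145 and 155 CPM at 1d against 309 and 131 CPM at 30d, red blood cell markers to 400 and 398 CPM against 773 and 423 CPM (241 and 238 against 454 and 255 CPM with genes of identical values counted once), and skeletal muscle markers to 59.6 and 111 CPM against 193 and 52.2 CPM. Adipocyte markers summed to 39.8 and 21.5 CPM against 65.9 and 29.9 CPM. Both 30d pools lay above both 1d pools for red blood cell markers alone among these 4 lists. Most members of all 4 had a positive log2 fold change. It was negative in 1 of 12 red blood cell markers tested, 2 of 14 neutrophil, 3 of 19 muscle and 0 of 8 adipocyte markers, and the red blood cell list holds genes of identical values. The antiviral effectors, by comparison, summed to 1184 and 1075 CPM at 1d against 777 and 723 CPM at 30d, the 2 pools of each time point lying on the same side. Of the 14 neutrophil, 19 muscle and 8 adipocyte markers none was called, at medians of 0.57, 0.59 and 0.89. The part of these markers in the 12 higher genes was not tested.

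**Figure D5:**
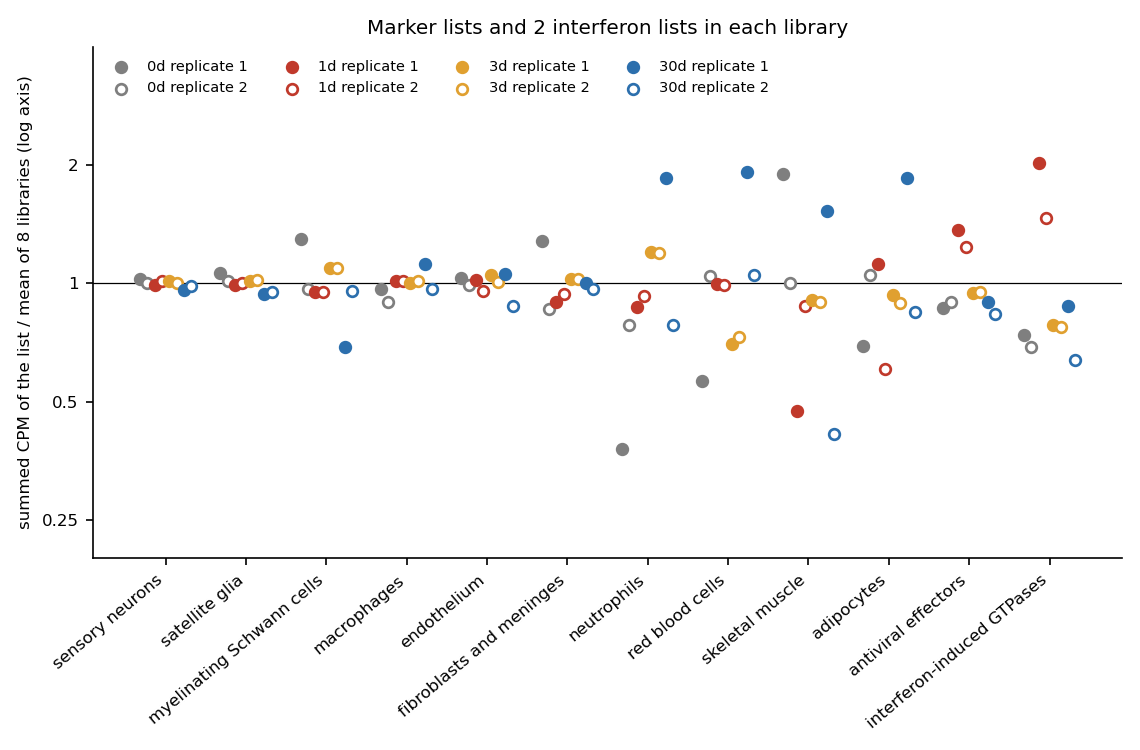
Summed CPM of 10 marker lists and 2 interferon lists (x axis) in each of the 8 libraries, divided by the mean of the 8 libraries (y axis, log scale). The filled blue point, 30d replicate 1, stands apart for neutrophil, red blood cell and adipocyte markers and lies below the others for Schwann cell markers, while for antiviral effectors and GTPases the 2 red points of 1d stand above all others.

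Other response programmes had no gene past the threshold. Of 23 glucocorticoid-responsive genes, 19 hypoxia factors and targets, 19 circadian clock genes, 25 genes of cholesterol synthesis and uptake and 26 cell cycle genes none was called, with medians of 0.05, 0.02, 0.14, −0.06 and 0.09. The metallothionein genes Mt1 and Mt2, named here after their values were seen, had 45.3 and 49.0 CPM and 34.4 and 28.4 CPM at 1d against 33.1 and 23.8 CPM and 18.6 and 11.8 CPM at 30d, with log2 fold changes of −0.73 ± 0.13 and −1.05 ± 0.21 that did not pass. Cytosolic ribosomal protein genes (81), nuclear oxidative phosphorylation subunits (77) and collagens (38) gave no call either, with medians of −0.05, −0.06 and 0.15. A call absent at 2 pools per time point does not show that a gene was at the same level, since 1881 genes reached an unadjusted p under 0.05 and 101 an adjusted one. Lists without a call, here and above, say little as well, with 0.676% of all genes called.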

How the data were processed

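Adapters were removed by the authors with cutadapt 2.10 and reads mapped to mm10 with STAR 2.7.5a. They counted read pairs on UCSC genes with featureCounts 2.0.1, without strand, with pairs that overlap several genes counted for each and multi-mapping reads left out. They deposited raw counts per gene for 8 libraries. Groups came from the sample titles. Genes with a CPM of at least 1 in 2 or more libraries were fitted in R 4.3.3 with edgeR 4.0.16: TMM scaling, 1 model of time point over all 8 libraries (4 residual degrees of freedom), robust quasi-likelihood F-test of 30d minus 1d, and Benjamini-Hochberg adjustment over all genes tested with a threshold of 0.05. The SE is the absolute log2 fold change over root F. CPM is TMM-scaled. The 9473 genes not tested held at most 0.109% of the counts of a library.

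Named genes are the 15 lower and up to 15 higher genes with the smallest p and no overlap between time points, genes called in a list, and up to 3 of each list's most abundant uncalled members. Members and lists were chosen with earlier results of these data known. Results for some genes are not reported here. Fits were tested on simulated data. DESeq2 1.42.0 and limma 3.58.1 (voom) were alternatives, beside other scalings, filters and trends. GC content and shared 50-base words came from GENCODE vM21 transcripts. The study's behavioural measurements were not used here.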

Additional observations from a re-analysis of the deposited data

How the results depend on the processing

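Beside the 101 genes called (89 lower, 12 higher), DESeq2 called 236 (157 and 79), no filter on low counts 213 (155 and 58), a threshold of 0.01 38 (38 and 0) and a fit without robust estimation 66 (65 and 1). Limma-voom called 77 genes, with 3 higher, removal of a gene length trend gave 20 higher, and a threshold of 0.10 gave 22 higher. The replicate numbers did not pair the pools (correlation of the replicate differences between 1d and 30d 0.00114), and a replicate block gave 162 genes, 116 lower and 46 higher, with all 101 among them. With each library left out in turn, 43 to 263 genes were called, 43 to 188 lower and 0 to 86 higher. The 86 were called without 1d replicate 1, and the highest counts of all and lower genes without 30d replicate 1. The 12 genes higher at 30d depended most on the setting, since 2 of them stayed called with limma-voom, 1 without robust estimation and none without 1d replicate 2 or either 3d pool. RLE and upper-quartile scaling, the filterByExpr filter, GC removal and thinning to the smallest total kept 101, 98, 98, 99 and 92 of the 101, and a fit of 1d and 30d alone kept 66. Calls lost in the fit of 1d and 30d alone included Irf9, Igtp, Ncam2, Apoe, Oasl1 and Herc6. Those lost without robust estimation included Gbp5, Calcb, Oasl1 and Herc6. The cause of these shifts was not tested. Where a fit left 1 pool in a group, that pool was assumed to vary like the others. With 2 pools of 2 to 3 mice per time point, the p-values measure the spread between pools only.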

Other observations

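Some of the genes called share counts with a neighbour. H2-T9 lies wholly within H2-T22 (100% of its length), and since a read pair that overlapped both was counted for both, the pair has nearly the same counts and the same log2 fold change of −0.45, so these 2 of the 89 lower genes are 1 measurement. Gm6548 (chr17:78850505-78852544 of mm10, minus strand), called lower with a log2 fold change of −0.64, lies directly past the 3′ end of Eif2ak2 (chr17:78852550-78882572, minus strand). Whether reads from the Eif2ak2 transcript entered the Gm6548 count was not tested. Words of 50 bases shared with other genes made up 35.8% of the H2-T22, 25.9% of the Pydc3 and 23.8% of the Herc6 transcript. The haemoglobin genes Hba-a1 and Hba-a2 were also given identical values, 80.5 and 84.4 CPM at 1d against 157 and 87.2 CPM at 30d, and so were Hbb-bs and Hbb-b1, at 78.4 and 76.0 CPM against 162 and 80.7 CPM.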
